A study of Sus scrofa with 9 samples.

Results

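The genes described here are 9 solute carriers that move aspartate or neutral amino acids across the plasma membrane: SLC1A1, SLC1A2, SLC1A3, SLC1A4, SLC1A5, SLC3A2, SLC7A5, SLC38A1 and SLC38A2. They were chosen by name, as the rows of the deposited count table that carry these symbols, and make up 9 of its 23507 genes. All 9 were found, each in 1 row, and 8 of them had enough counts to be tested. SLC1A3 had no count in any library and was not tested.

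The libraries came from pig (Sus scrofa) oocytes, labelled wild type, that had been matured in vitro to MII, the second meiotic metaphase, where the egg pauses until it is fertilized. All groups started as immature germinal vesicle (GV) oocytes with compact cumulus layers and were matured in TCM-199 medium with follicular fluid, hormones and growth factor for 44 to 48 h. The control group stayed at 38.5 °C. The heat stress group (HS) spent 24 h at 41.5 °C from the GV stage and then returned to 38.5 °C. The HS_Lasp group received L-aspartate (L-Asp) during the same heat exposure. For L-Asp the labels list 0.5, 1.0 and 1.5 mmol/L and do not say which was sequenced. Each group has 3 libraries, and 25 oocytes were collected per group, though the design text does not tell how many went into each library. Nothing states that the libraries came from separate cultures, so the p-values below rest on a spread between libraries that may be technical. There is no group with L-Asp and without heat.

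Aspartate is an acidic amino acid, and its classical route into cells is the family of high-affinity, sodium-coupled acidic carriers, which also take up glutamate. SLC1A1 (EAAT3), SLC1A2 (EAAT2, also called GLT-1) and SLC1A3 (EAAT1, also called GLAST) belong to it. SLC1A4 (ASCT1) and SLC1A5 (ASCT2) are relatives in the same gene family that exchange neutral amino acids such as alanine, serine and, for SLC1A5, glutamine. SLC3A2 (CD98 heavy chain) brings light chains such as SLC7A5 (LAT1) to the cell surface, and the pair exchanges large neutral amino acids. SLC38A1 (SNAT1) and SLC38A2 (SNAT2) are sodium-coupled carriers of small neutral amino acids, and SLC38A2 is known as a gene induced when cells lack amino acids. While oocytes are joined to their cumulus cells by gap junctions, these cells also pass amino acids on to them. What follows are RNA levels, and transport itself was not measured.

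In the table's own coordinates (genome build: not given in the sources used here), SLC1A5 (ENSSSCG00000003105) lies on chromosome 6 from 52647438 to 52661459 on the minus strand. SLC1A4 (ENSSSCG00000028282) lies on chromosome 3 from 76938107 to 76970508, minus strand. The acidic carriers SLC1A1 (ENSSSCG00000005222), SLC1A2 (ENSSSCG00000013296) and SLC1A3 (ENSSSCG00000016841) lie on chromosome 1 from 217366499 to 217441674, on chromosome 2 from 25604950 to 25766657 and on chromosome 16 from 21873691 to 21964990. SLC3A2 (ENSSSCG00000022404) lies on chromosome 2 from 8892090 to 8919065 and SLC7A5 (ENSSSCG00000032996) on chromosome 6 from 1545944 to 1574285. SLC38A1 (ENSSSCG00000000807, 77009862 to 77058427) and SLC38A2 (ENSSSCG00000000808, 77113494 to 77127650) are neighbours on chromosome 5, both on the minus strand. All 9 are annotated as protein-coding, and none overlaps another gene of the table.

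Total counts per library ranged from 54965064 to 58361475 in control, from 46198885 to 53327419 in HS and from 41693395 to 49008681 in HS_Lasp. The 3 control libraries were far closer to each other than the libraries of the heated groups. The median squared difference between a pair was 5.19 to 5.22 times what independent counts would give in control, 109 to 119 times in HS and 79.4 to 84.9 times in HS_Lasp. The control libraries were therefore averaged into 1 library in the tests, and their values below stand without an SD. The spread used in these tests, also against control, thus comes from the HS and HS_Lasp libraries alone. Of 12 oocyte markers 11 are in the table and none was at 0 in all libraries of a group. Their summed level in CPM, a gene's counts relative to the library total with libraries scaled by the trimmed mean of M values, was 24352 to 24622 in control, 11578 to 14797 in HS and 13196 to 16057 in HS_Lasp. Without its most abundant genes, BTG4 and BMP15, the sum was 4016 to 4057 in control, 3371 to 4823 in HS and 4344 to 5826 in HS_Lasp. The cDNA was primed with oligo(dT) on polyadenylated RNA, so a longer poly(A) tail and more RNA cannot be told apart, and neither can fewer cells of a type and less RNA per cell.

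SLC1A5 was by far the most abundant of the 9 transcripts in every library. Levels of different genes were compared by the deposited FPKM, in which the fragments of a gene are divided by transcript length and library size. SLC1A5 stood at 161, 165 and 160 FPKM in the control libraries, at 92.7, 165 and 209 in HS and at 188, 242 and 432 in HS_Lasp. The group means were 162 in control, 155 ± 58.6 in HS and 287 ± 128 in HS_Lasp (SD, n = 3). Among 295 genes of the table whose symbol begins with SLC, it ranked 2 in control and 1 in HS and in HS_Lasp by mean FPKM. Among all genes it ranked 283 in control, 323 in HS and 154 in HS_Lasp. Of the summed FPKM of the 9 transporters, SLC1A5 took 97.1 to 97.4% in control, 93.9 to 96.5% in HS and 96.5 to 98.4% in HS_Lasp.

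The other neutral exchanger of the family, SLC1A4, was next in control with a mean of 2.65 FPKM, so that SLC1A5 stood 61.3 times higher. It had 2.09 ± 0.363 FPKM in HS and 3.65 ± 0.629 in HS_Lasp (SD, n = 3). SLC38A2 followed in control at 0.975 FPKM. It had 2.96 ± 0.932 in HS, above the mean of SLC1A4, although the ranges of these genes overlapped there, and 1.68 ± 0.417 in HS_Lasp. In control and HS_Lasp the ranges of SLC1A5, SLC1A4 and SLC38A2 did not overlap each other.

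**Figure D1:**
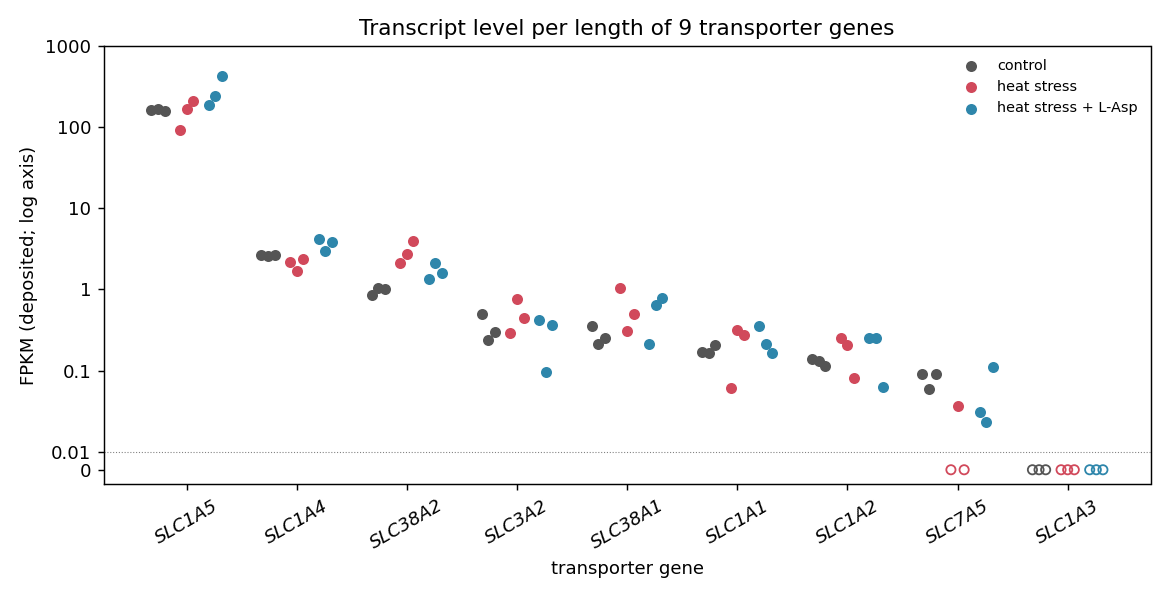
Deposited FPKM (log axis) of the 9 transporter genes, 1 point per library, with control, HS and HS_Lasp side by side and libraries listed at 0 as open circles under the dotted line. SLC1A5 lies between 92.7 and 432 FPKM in all 9 libraries, SLC1A4 and SLC38A2 come next, and SLC1A3 is at 0 throughout.

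The carriers with the classical aspartate activity had low levels. SLC1A1 had 0.170, 0.164 and 0.204 FPKM in control, 0.0615, 0.318 and 0.276 in HS and 0.353, 0.210 and 0.164 in HS_Lasp. These values rest on 15 to 80 counts per library, and the groups overlapped throughout. SLC1A2 had 0.128 FPKM on average in control, 0.179 ± 0.0877 in HS and 0.187 ± 0.108 in HS_Lasp (SD, n = 3). SLC1A2 had more counts than SLC1A1, 57 to 270 per library, but its transcript model is longer (21550 against 4693 bases, from the ratio of counts to FPKM), so that it ranks below SLC1A1 per length. SLC1A3 was at 0 in all 9 libraries, which allows at most 3 counts, or 0.0514 to 0.0720 CPM, per library, a limit that covers counting error only. The summed FPKM of the 3 acidic carriers was 0.294 to 0.318 in control, 0.313 to 0.523 in HS and 0.227 to 0.602 in HS_Lasp. Against SLC1A1, the highest acidic carrier by mean in each group, SLC1A5 stood 903 times higher in control, 712 times in HS and 1185 times in HS_Lasp.

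The CD98 heavy chain and its light chain were low as well. SLC3A2 had 0.346 FPKM on average in control, 0.500 ± 0.237 in HS and 0.295 ± 0.174 in HS_Lasp (SD, n = 3). SLC7A5 had 32, 23 and 34 counts in control, 0, 11 and 0 in HS and 10, 8 and 31 in HS_Lasp. Its mean FPKM was 0.0805 in control, 0.0123 in HS and 0.0554 in HS_Lasp, which put it below SLC1A1 and SLC1A2 in all 3 groups. SLC38A1 had 0.271 FPKM on average in control, 0.614 ± 0.382 in HS and 0.548 ± 0.297 in HS_Lasp (SD, n = 3). Below SLC38A2, the order of the genes is loose. In control the ranges of SLC3A2 and SLC38A1 overlapped, and in both heated groups so did those of SLC38A1 and SLC3A2, of SLC3A2 and SLC1A1 and of SLC1A1 and SLC1A2.

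Heat stress was compared with control first. None of the 8 tested transporters was called by edgeR's quasi-likelihood test at an adjusted p under 0.05, where 0% of the 15012 genes tested were called. An unadjusted p under 0.05 was reached by 579 genes, 3.86% of those tested, and SLC38A2 was the only member among them. DESeq2 called 183 genes (1.13%) with no member among them, and the edgeR fit with the 3 control libraries kept apart called 433 (2.88%), among them SLC38A2. Of the 8 transporters 5 had a fold change above 0, beside 50.1% of all tested genes. The median of the 8 log2 fold changes was 0.22, beside 0.0016 over all tested genes.

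SLC38A2 stood at 5.06, 6.15 and 5.93 CPM in control and at 11.7, 13.5 and 22.2 in HS. Every HS library was above every control library, as were those of 13.8% of all tested genes. The fitted log2 fold change was 1.46 ± 0.61 (SE), or 2.75-fold, which did not pass the correction (edgeR, adjusted p = 1). With the 3 control libraries kept apart it passed, at an adjusted p of 0.0384 (edgeR), whereas DESeq2 gave an adjusted p of 0.357. Without the third HS library, the highest, the log2 fold change was 1.12.

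**Figure D2:**
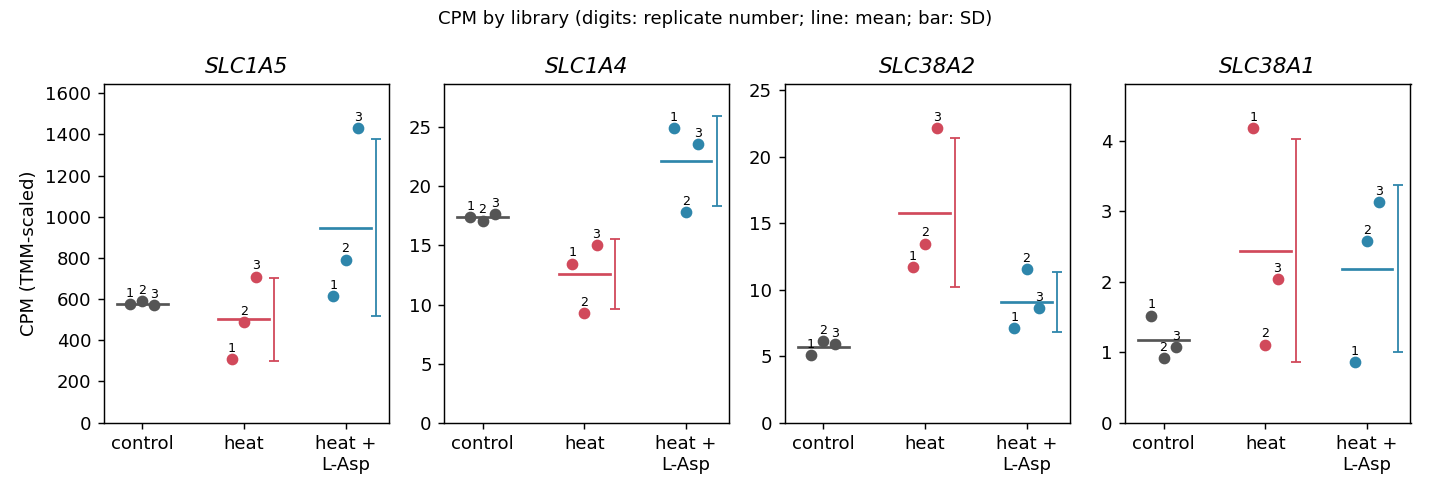
CPM of SLC1A5, SLC1A4, SLC38A2 and SLC38A1 in each library (linear axes from 0), with the replicate number beside each point, the group mean as a line and, for the heated groups, the SD as a bar. SLC38A2 lies at 11.7 to 22.2 CPM in HS against 5.06 to 6.15 in control, and SLC1A5 reaches 1432 in the third HS_Lasp library.

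SLC1A5 showed no consistent difference after heat. It stood at 575, 590 and 569 CPM in control and at 309, 488 and 710 in HS, so that the HS libraries lay on either side of control (log2 fold change -0.21 ± 0.48, edgeR, adjusted p = 1). Without the first HS library the sign turned, to 0.044. SLC1A4 stood at 17.4, 17.1 and 17.7 CPM in control and at 13.5, 9.24 and 15.0 in HS. All HS libraries were below control, as were those of 18.8% of all tested genes, with a log2 fold change of -0.47 ± 0.45 (edgeR, adjusted p = 1).

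The remaining carriers gave wide intervals. SLC38A1 had 0.910 to 1.52 CPM in control and 4.18, 1.11 and 2.04 in HS, with a log2 fold change of 1.07 ± 1.32. SLC1A1, SLC1A2 and SLC3A2 had log2 fold changes of 0.11 ± 1.81, 0.34 ± 1.02 and 0.37 ± 1.84, all with overlapping groups. Leaving out 1 HS library turned the sign of SLC1A1 (-0.17 without the second, -0.15 without the third) and of SLC1A2 (-0.036 without the first). SLC7A5 had 0.427 to 0.638 CPM in control and 0, 0.210 and 0 in HS. All HS libraries of SLC7A5 were below control, as were those of 18.8% of all tested genes. Its log2 fold change of -2.99 ± 2.98 depends on the count added to zeros, and without the second HS library no count is left in HS. Each of these 5 genes had an adjusted p of 1 (edgeR).

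The comparison of HS_Lasp with HS asks what adding L-Asp during heat was accompanied by. No transporter was called (edgeR), as 0% of all tested genes were. The unadjusted p was under 0.05 for 993 genes, 6.61% of those tested, among them 2 members, SLC1A5 and SLC1A4, both higher with L-Asp. DESeq2 called 179 genes (0.934%) and the fit with control libraries apart called 2 (0.0133%), and neither called a member. The log2 fold change was above 0 for 5 of 8 members, beside 49% of all tested genes, with a median of 0.14 beside -0.010 over all. The HS libraries are part of this comparison and of the one with control, so opposite signs in these are not independent of each other.

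SLC1A5 stood at 614, 792 and 1432 CPM in HS_Lasp against 309, 488 and 710 in HS. The groups overlapped, because the third HS library lay above the first HS_Lasp library. The log2 fold change was 0.91 ± 0.35, or 1.88-fold, and did not pass the correction (edgeR, adjusted p = 0.738). It was 0.49 without the third HS_Lasp library and 1.26 without the third HS library, and its adjusted p lay between 0.236 and 1 over all alternatives (edgeR and DESeq2).

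SLC1A4 stood at 25.0, 17.8 and 23.6 CPM in HS_Lasp against 13.5, 9.24 and 15.0 in HS. Every HS_Lasp library was above every HS library, which held for 6.31% of all tested genes. Its log2 fold change of 0.81 ± 0.33, or 1.76-fold, was similar in size to that of SLC1A5 (edgeR, adjusted p = 0.738, between 0.258 and 1 over the alternatives). These 2 exchangers are members of the same gene family, and no test compared their fold changes.

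SLC38A2 lay on the other side. It stood at 7.12, 11.5 and 8.62 CPM in HS_Lasp against 11.7, 13.5 and 22.2 in HS, so that the groups were separate only by the narrow gap between 11.5 and 11.7. By the deposited FPKM the groups overlapped, at 2.144 in the second HS_Lasp library and 2.137 in the first HS library. By CPM, all HS_Lasp libraries below all HS libraries was found for 5.54% of tested genes. The log2 fold change was -0.79 ± 0.39 (edgeR, adjusted p = 0.738), and without the third HS library it was -0.46.

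The low carriers showed no common direction. SLC38A1 had 0.853, 2.57 and 3.13 CPM in HS_Lasp and a log2 fold change of -0.16 ± 0.87, which turned to 0.47 without the first HS library and to 0.22 without the first HS_Lasp library. SLC1A1 and SLC1A2, the detected acidic carriers, had log2 fold changes of 0.19 ± 1.27 and 0.09 ± 0.71. The sign turned for SLC1A1 without the first HS (-0.24) or first HS_Lasp library (-0.16). It turned for SLC1A2 without the third HS (-0.24), first HS_Lasp (-0.17) or second HS_Lasp library (-0.16). SLC3A2 had -0.69 ± 1.28 and SLC7A5 2.31 ± 2.44, the latter against 2 HS libraries at 0. The adjusted p of these 5 genes lay between 0.906 and 0.997 (edgeR). With standard errors of 0.71 to 2.44, a change of the size seen for SLC1A5 was not detectable for these genes.

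**Figure D3:**
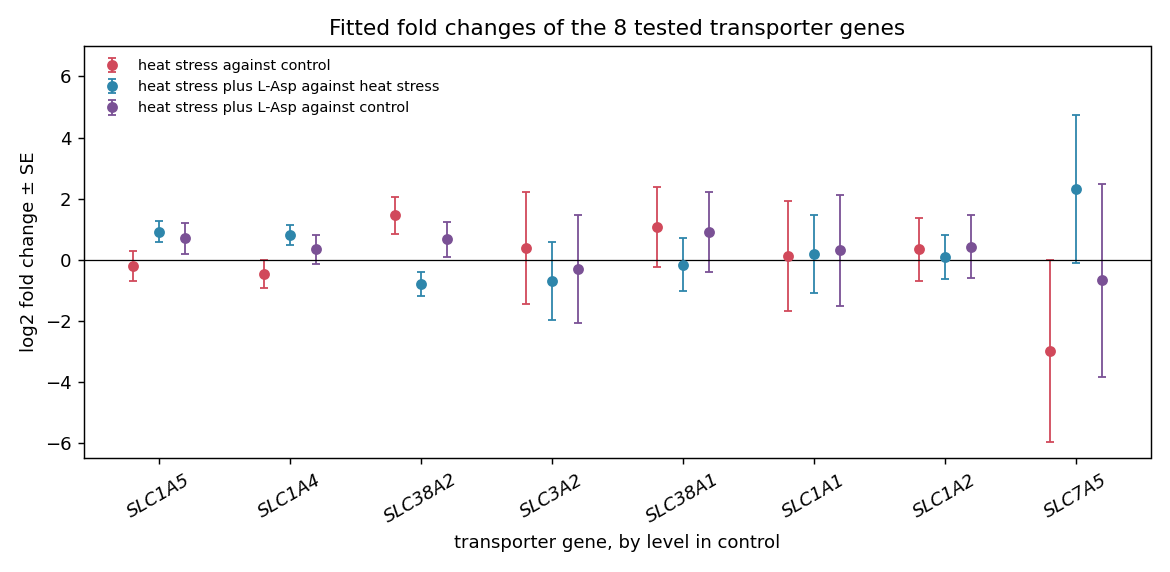
Fitted log2 fold changes (edgeR quasi-likelihood fit) of the 8 tested transporter genes in the 3 comparisons, as points. The bars span 1 standard error on either side, derived from the F statistic. The bars are shortest for SLC1A5, SLC1A4 and SLC38A2, with an SE of 0.33 to 0.61, and longest for SLC7A5, with an SE of 2.44 to 3.16.

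HS_Lasp was also compared with control, which shares the control libraries with the first comparison and the HS_Lasp libraries with the one before. None of the 8 transporters was called, as 0% of tested genes were (edgeR). The unadjusted p was under 0.05 for 484 genes, 3.22% of those tested and none of them a member. DESeq2 called 64 genes (0.386%) and the fit with control libraries apart called 269 (1.79%), no member among them. Of the 8, 6 had a log2 fold change above 0, beside 50.5% of all genes, with a median of 0.38 beside 0.0067. All HS_Lasp libraries lay above all control libraries for SLC1A5, SLC1A4 and SLC38A2, and this held for 14.5% of tested genes. Their log2 fold changes were 0.70 ± 0.51 for SLC1A5, 0.34 ± 0.47 for SLC1A4 and 0.66 ± 0.58 for SLC38A2, each with an adjusted p of 1 (edgeR). For SLC1A5 the value was 0.28 without the third HS_Lasp library. SLC1A1 (0.30 ± 1.83), SLC1A2 (0.42 ± 1.03) and SLC38A1 (0.91 ± 1.31) had values above 0, and SLC3A2 (-0.32 ± 1.77) and SLC7A5 (-0.67 ± 3.16) below 0, all with overlapping groups. The sign turned for SLC1A1 without the first HS_Lasp library (-0.049). It turned for SLC3A2 without the first control (0.022) or second HS_Lasp library (0.11).

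Within the heated groups the coefficient of variation of the CPM was 40.05% in HS and 45.5% in HS_Lasp for SLC1A5, and 23.8% and 17.2% for SLC1A4. Over the HS and HS_Lasp libraries pooled, a range that includes the difference between these groups, the highest SLC1A5 value of the 6 was 4.64 times the lowest, whereas the median of this ratio over the 1822 genes with a mean of at least 100 CPM was 1.70. Over the 3 control libraries SLC1A5 had a ratio of 1.04, as did the median of these genes. The ratio over the 6 pooled libraries was 2.70 for SLC1A4, 3.11 for SLC38A2 and 4.90 for SLC38A1. It was 5.34 for SLC1A1, 4.05 for SLC1A2 and 6.90 for SLC3A2, which have few counts.

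The profiles nearest to those of the higher members were looked up by Pearson's r of log2 CPM over the 7 libraries of the fit, among 5718 genes with a symbol and a mean of at least 10 CPM. For SLC1A5 these were SH2B1 (r = 0.996), an adaptor protein of receptor kinases, FRMD8 (r = 0.986) and STX6 (r = 0.985), a syntaxin of endosomal membrane traffic. SH2B1 had 39.1 CPM on average in control, 35.3 in HS and 68.2 in HS_Lasp. For SLC1A4 they were the kinase STK35 (r = 0.986), ARMH3 (r = 0.974) and the nucleic acid binding protein YBX3 (r = 0.971). With 7 points and so many candidates such values are a description only, and all points share the heated libraries' spread.

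SLC1A5 also led a wider list of amino acid transporters. This list names 63 genes, the 9 members included, of which 53 are in the table, and SLC1A5 had the highest mean FPKM of the 53 in each group. SLC1A4 ranked 15 in control, 17 in HS and 13 in HS_Lasp, and SLC38A2 ranked 22, 14 and 21. The next genes in control were SLC25A13 at 87.9 FPKM, SLC6A20 at 39.4 and SLC17A5 at 29.6. SLC25A13 (citrin) carries aspartate out of mitochondria in exchange for glutamate, SLC6A20 is a carrier of imino acids such as proline, and SLC17A5 (sialin) is best known as the lysosomal exporter of sialic acid. SLC25A13 had 89.2 ± 5.44 FPKM in HS and 94.9 ± 14.5 in HS_Lasp (SD, n = 3). SLC25A12, the other mitochondrial aspartate carrier, had 0.766 FPKM on average in control.

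The remaining EAAT genes were low too. SLC1A7 (EAAT5) had a mean of 0.146 FPKM in control. SLC1A6 (EAAT4) had 0.0795 in control and was at 0 in all 6 heated libraries. Fewer genes had any count in the heated libraries, 14730 to 15808 against 17433 to 17685 in control. The zeros of SLC1A6, and those of SLC7A5 in HS, were not separated from this wider difference. The highest value of EAAT1 to EAAT5 in any library was the 0.353 FPKM of SLC1A1 in the first HS_Lasp library. SLC7A11, the cystine and glutamate exchanger, had 6.95 FPKM on average in control, above every member but SLC1A5. Among light chains that pair with SLC3A2, SLC7A7 had 11.4 FPKM in control and SLC7A8 had 3.35, both far above SLC7A5 and SLC3A2 itself.

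**Figure D4:**
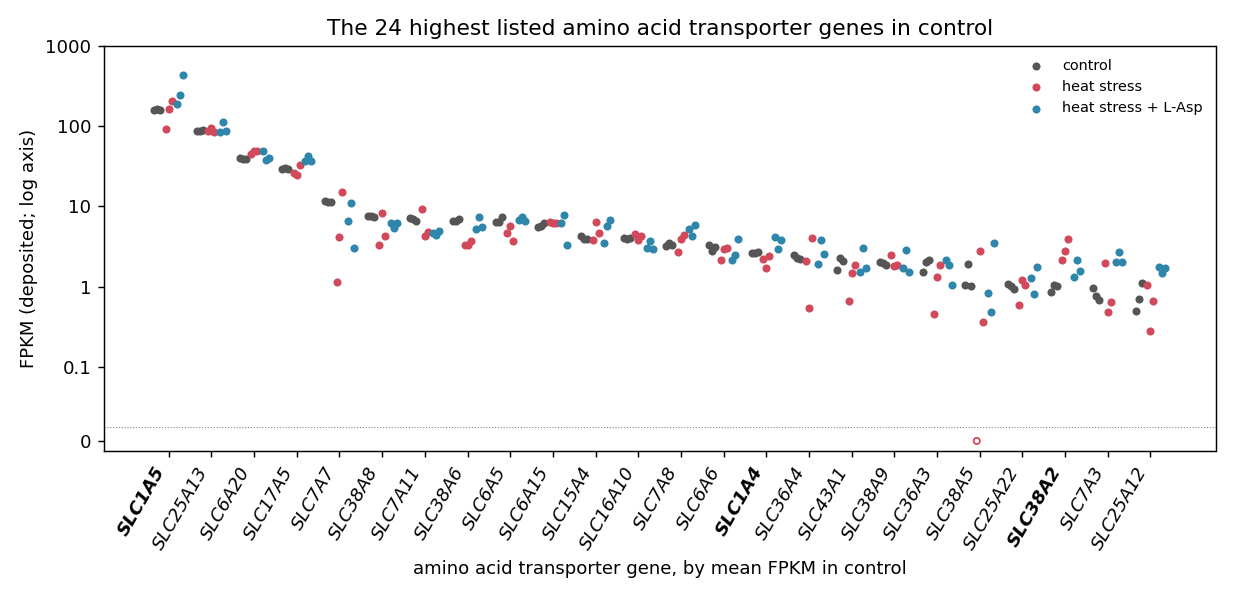
Deposited FPKM (log axis) of the 24 listed amino acid transporter genes with the highest mean in control, 1 point per library, in order of that mean, with 1 library at 0 as an open circle and members of the set in bold. SLC1A5 is first, SLC1A4 is 15 and SLC38A2 is 22 in this order, and the acidic carriers SLC1A1, SLC1A2 and SLC1A3 are not among the 24.

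Beyond the 9 members, the list names 54 transporters, of which 33 were tested. None was called in any comparison, as 0% of all tested genes were (edgeR). In HS against control 11 of the 33 had a fold change above 0, 5 had all HS libraries below control and none had all above, beside 50.1%, 18.8% and 13.8% of all tested genes. In HS_Lasp against HS 23 of 33 were above 0, 6 had all HS_Lasp libraries above HS and none had all below, beside 49%, 6.31% and 5.54% of all tested genes. The HS libraries are part of both comparisons, so opposite directions in these are not independent of each other. In HS_Lasp against control 15 of 33 were above 0 and 18 below, beside 50.5% of all tested genes above 0. SLC38A6, a member of the SLC38 family, had 23.6, 23.2 and 24.9 CPM in control, 11.1, 9.79 and 12.5 in HS and 17.0, 23.9 and 18.4 in HS_Lasp. Its log2 fold change was -1.11 ± 0.42 in HS against control (edgeR, adjusted p = 1) and 0.83 ± 0.32 in HS_Lasp against HS (edgeR, adjusted p = 0.738). Of the 7 SLC38 genes tested outside the set none was above 0 after heat, beside 50.1% of all tested genes. SLC38A9 among them was close to 0 (log2 fold change -0.056 ± 0.51). Within the set, SLC38A2 had 1.46 ± 0.61 and SLC38A1 had 1.07 ± 1.32. SLC6A5, a sodium-dependent glycine carrier, had 38.2, 42.5 and 31.2 CPM in HS against 54.7, 59.5 and 54.1 in HS_Lasp (log2 fold change 0.59 ± 0.23, edgeR, adjusted p = 0.738).

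SLC38A2 is a known target of the transcription factor ATF4, which acts in the response to a lack of amino acids. Any part of ATF4 in the SLC38A2 values was not tested. Of 15 tested genes of the amino acid response 10 were above 0 after heat and 6 with L-Asp against heat, beside 50.1% and 49% of all tested genes. None was called, as 0% of all tested genes were (edgeR). After heat 5 had all HS libraries above control and 3 had all below, beside 13.8% and 18.8% of all tested genes. ATF4 had 47.4, 45.0 and 47.3 CPM in control, 103, 86.9 and 78.8 in HS and 85.0, 61.8 and 71.2 in HS_Lasp. Its log2 fold change after heat was 0.94 ± 0.34 (edgeR, adjusted p = 1). ASNS, the enzyme that makes asparagine from aspartate, had 135 to 142 CPM in control, 238 to 299 in HS and 210 to 267 in HS_Lasp, with a log2 fold change after heat of 0.98 ± 0.30 (edgeR, adjusted p = 0.761). CHAC1, of the same list, had a log2 fold change after heat of 1.03 ± 0.52, with all HS libraries above control. TRIB3 and PSAT1, known ATF4 targets of the list, lay on the other side: TRIB3 had 4.43 to 6.33 CPM in control and 1.20 to 2.17 in HS. PSAT1, an enzyme of serine synthesis, had 4.33 to 5.50 CPM in control and 0.400 to 1.67 in HS, and both had an adjusted p of 1 (edgeR).

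Genes of cumulus and granulosa cells, which surround the oocyte, differed between the same libraries. Of 30 markers 25 are in the table and 18 were tested, with none called, as 0% of all tested genes were (edgeR). After heat 13 of the 18 had a fold change above 0, beside 50.1% of all tested genes. Their median log2 fold change was 0.84, beside 0.0016 over all. All HS libraries lay above control for 8 and below for 2, beside 13.8% and 18.8% of all tested genes. The summed level of the list was 1284 to 1327 CPM in control, 1327 to 1691 in HS and 1305 to 1345 in HS_Lasp, and without its most abundant genes RGS2 and VCAN it was 255 to 262, 218 to 317 and 264 to 348. AMH, PTX3 and LHCGR were at 0 in all control and all HS libraries, PTX3 also in all of HS_Lasp, and INHBA, INHBB, GATA6 and EREG in all control libraries. CYP11A1, a steroid-making enzyme, had 0, 0 and 0.113 CPM in control, 5.85, 6.23 and 14.8 in HS and 1.29, 7.63 and 0.672 in HS_Lasp. GJA1, the gap junction protein of cumulus cells, had 0.186 to 1.52 CPM in control, 6.82, 6.99 and 13.1 in HS and 4.92, 1.56 and 6.88 in HS_Lasp. CYP11A1 and GJA1 were picked from the list after their values were seen. The third HS library was the highest of all in CYP11A1, GJA1 and SLC38A2. The second HS_Lasp library was the highest of its group in CYP11A1 and SLC38A2 but the lowest in GJA1. Other markers ran otherwise: within HS, RGS2 and VCAN were highest in the first library and KITLG in the second. GATA4, a transcription factor of granulosa cells in the same list, had 80.3 to 84.5 CPM in control, 41.9, 47.4 and 117 in HS and 100, 140 and 165 in HS_Lasp. Its heated libraries stood in the same order within each group as those of SLC1A5, which was also highest in the third HS_Lasp library, where CYP11A1 was at 0.672 CPM. The part of such cells in the SLC38A2 and SLC1A5 values was not tested.

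**Figure D5:**
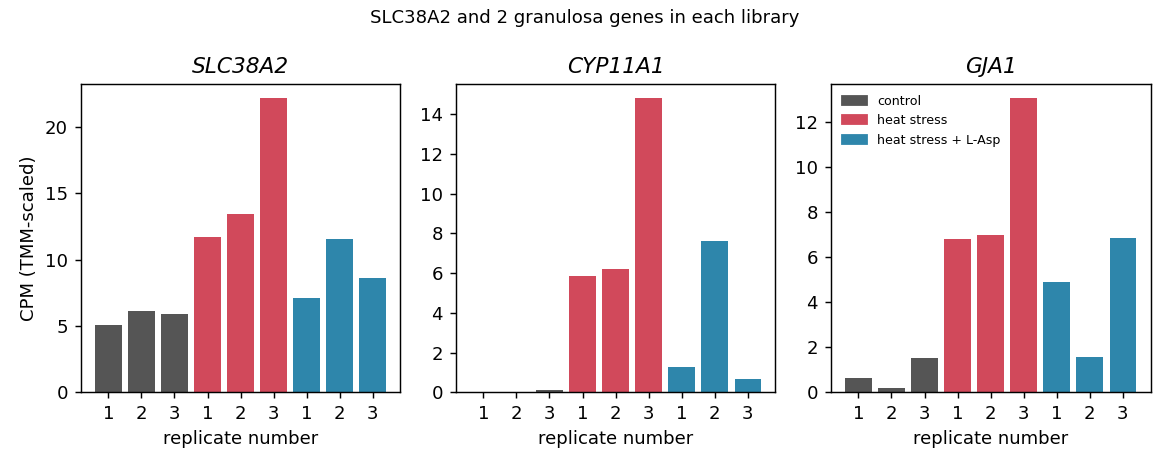
CPM (linear axes from 0) of SLC38A2 and of the granulosa genes CYP11A1 and GJA1 in each of the 9 libraries, as bars by replicate number and group. The third HS library is the highest in all 3 panels, at 22.2, 14.8 and 13.1 CPM, and control is below 2 CPM in CYP11A1 and GJA1.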

How the data were processed

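Polyadenylated RNA of pig MII oocytes was sequenced in 9 libraries, grouped by their titles. Per the labels' protocols, reverse transcription started from an oligo(dT) primer and the full-length product was amplified by PCR and read from both ends, without strand marking or molecular identifiers being described, so counting limits cover counting error only. Per the file headers, the authors deposited 1 table with counts and FPKM per gene and library. The deposited counts were whole numbers and were used as deposited, and the FPKM values, computed by the authors, served only to compare levels between genes. The submitters' processing notes list DESeq2, edgeR, StringTie 2.1.6, HISAT2 2.2.1 and cutadapt 1.9 without roles. Genome build and way of counting: not given in the sources used here. Another 6 columns of per-sample values were left unused. Of the genes, 13893 had a symbol in the table, 116 in a list of gene names, and 9498 in neither.

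The filter was filterByExpr, which kept 15012 genes, and scaling used the trimmed mean of M values. Testing was by the quasi-likelihood F test of edgeR 4.0.16 (R 4.3.3, robust fit) over 7 libraries, with 1 mean per group and 4 residual degrees of freedom. The rounded mean of the 3 control libraries was 1 of the 7. In control, low counts piled up at 4, which more genes had than 3. An adjusted p (Benjamini-Hochberg over all tested genes) under 0.05 was a call. The SE of an edgeR log2 fold change was derived as its absolute value divided by the square root of its F statistic. CPM were scaled in this way over the 9 libraries, and profiles were compared as log2 CPM with a prior count of 2. Alternatives were all 9 libraries, DESeq2 1.42.0, other scaling and filters, a replicate block and leaving out each library. The scripts were tested on simulated counts.

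The members, gene lists and tests were chosen with earlier results of these data known. The text names all members, the 3 nearest profiles of SLC1A5 and SLC1A4 and the highest listed transporter. From each other list it names some, not all, of the genes of smallest p with at least 10 CPM in a group. Some transporters and markers given only as levels were named after their values were seen, as were TRIB3 and PSAT1. Another list is not reported here.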

Additional observations from a re-analysis of the deposited data

How the results depend on the processing

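The count of called genes depends on the fit, and the cause was not tested. In HS against control it was 0, but 433 with all 9 libraries, 183 by DESeq2, 9 without a filter, 378 with 9 libraries and the replicate block, and 0 to 1 with a library left out. In HS_Lasp against HS it was 0, but 2 with all 9 libraries, 179 by DESeq2, 2 without a filter, 2 with the filter on 7 libraries, and 0 to 3 with a library left out. In HS_Lasp against control it was 0, but 269 with all 9 libraries, 64 by DESeq2, 3 without a filter, 223 with the replicate block and 0 to 1 with a library left out.

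The count of called members was 0 except in HS against control, where it was 1 with all 9 libraries and 1 with the replicate block added, SLC38A2 in each case (edgeR adjusted p 0.0384 and 0.0490). Same-numbered libraries did not clearly deviate together (r -0.02 to 0.05, against -0.04 to 0.04 for other pairs), and 3 of 9 libraries correlated best with their own number. This check cannot exclude a pairing, because the heated libraries differ from each other by far more than counting noise.

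Of 445 fold changes of members under an alternative, 427 kept direction and call. In HS_Lasp against HS, SLC1A2 turned to -0.0086 in the 6 heated libraries with the replicate block and SLC38A1 to 0.0021 in the 9 libraries with it. With 1 library left out, log2 fold changes in HS against control lay at -0.17 to 0.54 for SLC1A1, -0.036 to 0.66 for SLC1A2 and -0.55 to 0.044 for SLC1A5. In HS_Lasp against HS they lay at -0.24 to 0.47 for SLC1A1, -0.24 to 0.50 for SLC1A2 and -0.51 to 0.47 for SLC38A1. In HS_Lasp against control they lay at -0.049 to 0.51 for SLC1A1 and -0.66 to 0.11 for SLC3A2. Where a group had 3 libraries 2 were left, and control is 1 library in every such fit. With a mean count of at least 50 as the filter, SLC7A5 was not tested. Depth limits SLC1A1, SLC1A3, SLC3A2 and SLC7A5 most.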

Other observations

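Genes that sense amino acids for the growth kinase complex mTORC1 and enzymes that use aspartate were also read. None was called in any comparison, as 0% of all tested genes were (edgeR). Of 22 tested genes of amino acid sensing 7 had a fold change above 0 after heat and 12 with L-Asp against heat. The shares over all tested genes were 50.1% and 49%. RRAGA, a GTPase that brings mTORC1 to the lysosome, had 637, 644 and 654 CPM in control, 334, 252 and 504 in HS and 390, 527 and 536 in HS_Lasp. RHEB, the GTPase that activates mTORC1, had 243 to 273 CPM in control, 137 to 185 in HS and 131 to 152 in HS_Lasp. CASTOR1, an arginine sensor, had 264 to 275 CPM in control, 65.8, 128 and 166 in HS and 145, 187 and 320 in HS_Lasp.

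Of 18 tested enzymes of aspartate and glutamate metabolism 10 were above 0 after heat and 8 with L-Asp against heat, beside the same 50.1% and 49%. ASRGL1, an asparaginase that releases aspartate, had 7.97 to 9.02 CPM in control, 6.05 to 19.8 in HS and 2.97 to 3.59 in HS_Lasp (log2 fold change against HS -1.81 ± 0.52, edgeR, adjusted p = 0.738). The mitochondrial malate dehydrogenase MDH2 had 43.6 to 48.9 CPM in control, 22.1 to 25.8 in HS and 30.6 to 42.9 in HS_Lasp. GOT2, the mitochondrial aspartate aminotransferase, had a mean of 58.1 CPM in control, 50.9 in HS and 71.2 in HS_Lasp.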
